A study of Mus musculus with 6 samples.

Results

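The genes described here are the binding proteins of insulin-like growth factors with their ligands and signalling receptor. They were taken as every probe set annotated to exactly 1 symbol among Igfbp1 to Igfbp7, Igf1, Igf2 and Igf1r. Of these 10 genes 9 were measured, 6 of them Igfbp genes, out of 11280 genes in all, and Igfbp7 was not analysed here. The 9 genes were read by 70 probe sets. Igfbp2 and Igfbp3 were chosen by their mean log2 intensity in K14ΔNLef1 against wild type, in which they moved apart, so the values of all 9 genes in that contrast are given as a description, with no test.

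Keratinocytes of the back-skin epidermis, not split into subsets, were measured in 3 samples from K14ΔNLef1 transgenic mice and 3 from wild type mice, all 9.5 week old females on a C57BL6/CBA background. The samples are labelled biological replicates, with no word on whether each is 1 animal or a pool. The transgene is a form of Lef1, a DNA-binding transcription factor of the Wnt pathway, that lacks its N-terminal part. It is driven by the keratin 14 promoter, which is active in basal epidermal cells and the outer root sheath, so the cells sampled include some that would not express it. Each sample was hybridised to 1 mouse exon array, and a gene value averages the log2 intensities of the probe sets of that gene. Errors are SD with n = 3 arrays per genotype. Differences are on the log2 scale, with the wild type mean subtracted from the K14ΔNLef1 mean, so that 1 unit is a doubling of intensity.

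Insulin-like growth factors are secreted peptides that signal through the receptor tyrosine kinase Igf1r. The Igfbp proteins are secreted, bind Igf1 and Igf2 with high affinity, and by holding or releasing them set how much ligand reaches the receptor; several also act on cells without a ligand. In skin the ligand Igf1 is made mainly by dermal cells while keratinocytes carry the receptor, and in human epidermis IGFBP3 is made mainly by basal keratinocytes.

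The 2 genes that moved apart are shown first by the sequence around their start sites, because the transgene product binds DNA. Each window runs from 250 bases before to 50 bases after a RefSeq start site on GRCm38.p6, written 5′ to 3′ along the gene, and all 9 genes had at least 1 window. Capitals mark the core letters of Lef1 and Tcf sites, CTTTG or its reverse complement CAAAG, searched on both strands. Igfbp2 has windows at chr1:72824230-72824529 and chr1:72825137-72825436 on the plus strand, and Igfbp3 has 1 at chr11:7213874-7214173 on the minus strand.
Igfbp2, upstream start: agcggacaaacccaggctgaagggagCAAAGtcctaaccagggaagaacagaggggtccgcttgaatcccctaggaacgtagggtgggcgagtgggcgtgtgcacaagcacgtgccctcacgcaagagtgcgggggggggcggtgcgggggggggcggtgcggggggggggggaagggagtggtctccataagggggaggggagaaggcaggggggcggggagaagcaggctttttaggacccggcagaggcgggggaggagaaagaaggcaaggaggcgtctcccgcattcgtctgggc
Igfbp2, downstream start: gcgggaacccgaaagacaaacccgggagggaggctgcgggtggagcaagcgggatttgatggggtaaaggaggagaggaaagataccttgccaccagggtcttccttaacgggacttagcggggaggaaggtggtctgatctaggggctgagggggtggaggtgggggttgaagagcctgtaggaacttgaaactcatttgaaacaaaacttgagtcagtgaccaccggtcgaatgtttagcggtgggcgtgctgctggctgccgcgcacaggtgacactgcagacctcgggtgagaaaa
Igfbp3: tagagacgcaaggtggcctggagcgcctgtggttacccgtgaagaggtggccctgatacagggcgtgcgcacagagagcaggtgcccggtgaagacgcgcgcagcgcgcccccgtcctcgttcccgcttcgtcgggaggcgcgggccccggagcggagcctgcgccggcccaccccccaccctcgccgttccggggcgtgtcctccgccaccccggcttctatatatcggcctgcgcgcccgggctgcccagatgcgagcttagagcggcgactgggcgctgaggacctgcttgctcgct

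The upstream Igfbp2 window held 1 match, on the opposite strand with its first base at -224 from the start, and the downstream Igfbp2 window and the Igfbp3 window held 0. These 5 letters occur in 53.9% of all 32851 windows. A longer form of 7 letters, which is CTTTG followed by any 2 letters that are each A or T and so overlaps the core, was in 0 of these 3 windows and in 16.9% of all windows. GC content was 67.0% and 57.3% in the Igfbp2 windows and 71.7% in the Igfbp3 window, with a median of 52.7% over all windows. The letters are a description of these windows, and binding was not measured.

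The arrays were checked by the transgene and by cell markers. Lef1 had gene values of 11.11, 11.13 and 11.24 on the K14ΔNLef1 arrays, against 5.81, 7.02 and 6.26 on the wild type arrays. K14ΔNLef1 replicate 1 stood apart, with a median intensity of 154.2, where the other 5 arrays had 190.0 to 203.2. The summed intensity of 9 measured keratinocyte markers, among them Krt14 and Krt5, was 24948 to 33249 on K14ΔNLef1 arrays and 34539 to 36863 on wild type arrays, with 8 of 9 lower and 0 past the limma threshold. Krt14 itself, the keratin of basal cells, was bright on all arrays, at 12.81 to 13.06 in K14ΔNLef1 and 12.89 to 12.99 in wild type. Sums of 9 fibroblast markers were 1347 to 1995 on K14ΔNLef1 arrays and 988 to 1378 on wild type arrays, and sums of 9 endothelial, pericyte and smooth muscle markers were 615 to 819 in K14ΔNLef1 and 593 to 682 in wild type. For 10 T cell and Langerhans cell markers the sums were 3239 to 9631 in K14ΔNLef1 and 3281 to 4863 in wild type, with 0 of the 10 past the limma threshold, for 7 melanocyte markers 677 to 1055 in K14ΔNLef1 and 721 to 873 in wild type, and for 7 sebocyte markers 1399 to 2690 in K14ΔNLef1 and 1670 to 1869 in wild type. The table has no detection calls, so which dim probe sets were above background is unknown.

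Igfbp2, which binds both ligands and carries an integrin-binding motif, had the largest difference toward higher values in the transgenic epidermis among the 9 genes. Its gene value was 8.88, 8.75 and 9.21 on the K14ΔNLef1 arrays, against 6.01, 6.40 and 6.30 on the wild type arrays. The genotypes did not overlap, and the lowest transgenic array lay well above the highest wild type array. The means were 8.95 ± 0.24 in K14ΔNLef1 and 6.24 ± 0.20 in wild type (SD, n = 3), a difference of 2.71 or 6.55-fold. It was the difference in rank 7 from the top among 11280 genes. In these bulk samples more cells of a type and more RNA per cell cannot be told apart. Of the 10 T cell and Langerhans cell markers 9 had a positive difference, with a median of 0.76. So did 8 of 9 fibroblast markers, with a median of 0.14, where 4830 of all 11280 genes were positive. The other T cell and Langerhans cell marker, Epcam, had -0.07, or 0.15 without K14ΔNLef1 replicate 1. The summed T cell and Langerhans cell markers were 3239, 9631 and 6514 on K14ΔNLef1 replicates 1, 2 and 3. Wild type arrays had 3281 to 4863. The other fibroblast marker, Lum, had -1.29. Without K14ΔNLef1 replicate 1, the fibroblast markers Col1a1 and Pdgfra were also below 0, at -0.013 and -0.03. Thy1 is in both lists. The part of these cells in the Igfbp2 value was not tested.

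**Figure D1:**
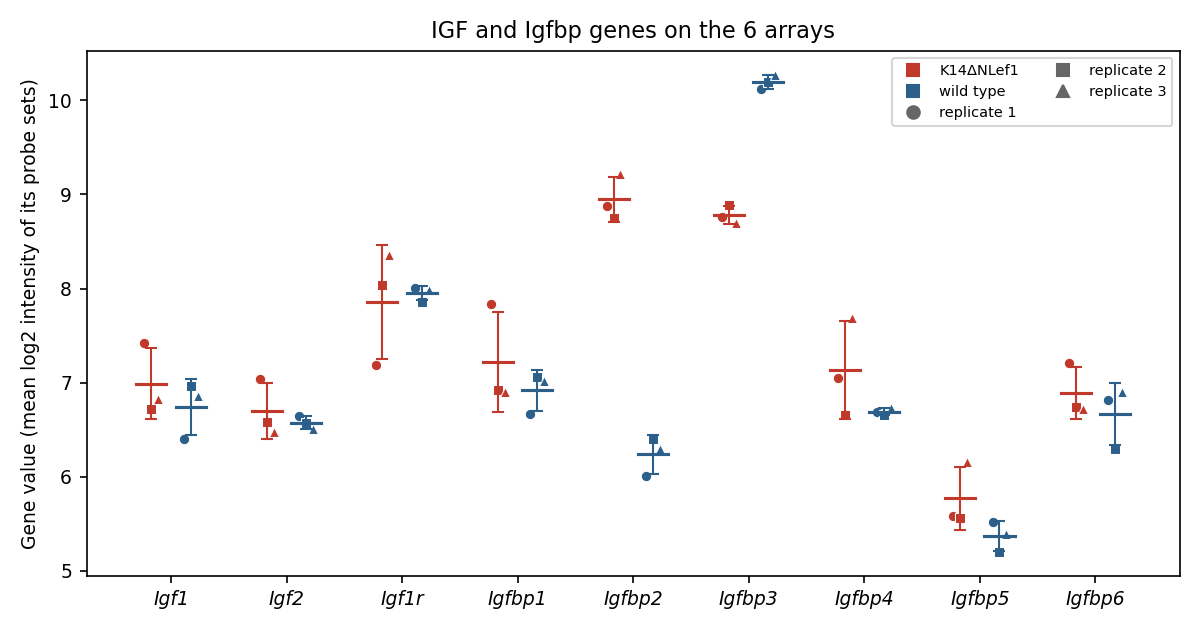
Gene values (log2 intensity averaged over a gene's probe sets, y axis) of the 9 measured genes on the 3 K14ΔNLef1 arrays (red) and the 3 wild type arrays (blue); bars are means and whiskers SD (n = 3). Igfbp2 lies higher in K14ΔNLef1 at 8.95 against 6.24, Igfbp3 lower at 8.78 against 10.20, and the other genes differ by at most 0.44.

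Igfbp3, in blood the main carrier of both ligands together with the acid-labile subunit, was lower in the transgenic epidermis. Its gene value was 8.76, 8.89 and 8.70 on the K14ΔNLef1 arrays, against 10.12, 10.19 and 10.27 on the wild type arrays. Again the genotypes did not overlap, and the spread within each was small. The means were 8.78 ± 0.10 in K14ΔNLef1 and 10.20 ± 0.08 in wild type (SD, n = 3), a difference of -1.41, with wild type 2.66-fold higher. That was rank 88 from the bottom of all genes. The keratinocyte marker sum was also lower on every K14ΔNLef1 array, at 24948, 30518 and 33249 on replicates 1, 2 and 3. The median difference over its 9 genes was -0.34. Trp63, the gene at that median, had -0.26 without K14ΔNLef1 replicate 1. The part of the lower marker sum in the Igfbp3 value was not tested. Igfbp2 and Igfbp3 together differed by 4.12 log2 units in their response.

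Both differences were much alike on each transgenic array. Set against the wild type mean, Igfbp2 was higher by 2.64, 2.51 and 2.98 on K14ΔNLef1 replicates 1, 2 and 3, and Igfbp3 differed by -1.44, -1.30 and -1.49. Without replicate 1 the differences were 2.75 for Igfbp2 and -1.40 for Igfbp3. The median difference of all genes was -0.054, and relative to it the 2 genes differed by 2.77 and -1.36. With arrays shifted to the same median, which moves the median of all genes to 0.054, the differences were 2.82 and -1.30.

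The probe sets of Igfbp2 did not all show the difference to the same degree. Of 7 probe sets, 6 had all K14ΔNLef1 arrays above all wild type arrays, a pattern found in 5.11% of all 109751 probe sets, and nothing is read from that count, since the same contrast chose the gene. The largest difference, 5.71, was in probe set 4888822, with 9.39, 10.27 and 10.58 in K14ΔNLef1 against 3.11, 5.89 and 4.13 in wild type. Its wild type values were the dimmest and the most spread of the gene. Probe sets 4308391, 4702127, 5447799 and 4894493 differed by 3.51, 3.19, 3.0 and 2.60. Probe set 5553170 was dim in both genotypes, at 5.89, 5.79 and 6.33 in K14ΔNLef1 against 5.29, 5.63 and 5.46 in wild type, a difference of 0.54. The remaining one, 4825612, was bright in both, at 9.68, 8.79 and 8.75 in K14ΔNLef1 against 8.47, 8.87 and 8.55 in wild type. Its genotypes overlapped, and its difference of 0.44 was 0.14 without K14ΔNLef1 replicate 1. These 2 probe sets pull the gene mean of 2.71 below the median of the 7 probe sets, 3.0.

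Among the 6 probe sets of Igfbp3, 5 had all K14ΔNLef1 arrays below all wild type arrays, as 9.46% of all probe sets did. Nothing is read from this count either, since the same contrast chose the gene. The brightest, 5426997, read 10.50, 10.12 and 10.25 in K14ΔNLef1 against 11.99, 11.97 and 12.10 in wild type, a difference of -1.73. Probe set 5459728 had the largest difference, -2.37, with 7.33, 8.96 and 8.93 in K14ΔNLef1 against 10.70, 10.58 and 11.07 in wild type. Here replicate 1 was the lowest array, and without it the difference was -1.84. Probe sets 4387569, 5090238 and 5567121 differed by -1.84, -1.75 and -1.10. The exception was 5312150, at 9.68, 7.18 and 7.49 in K14ΔNLef1 against 7.40, 8.0 and 7.95 in wild type. Replicate 1 alone was high there, so that its difference of 0.33 was -0.46 without that array. Where in each gene these probe sets lie was not analysed here.

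**Figure D2:**
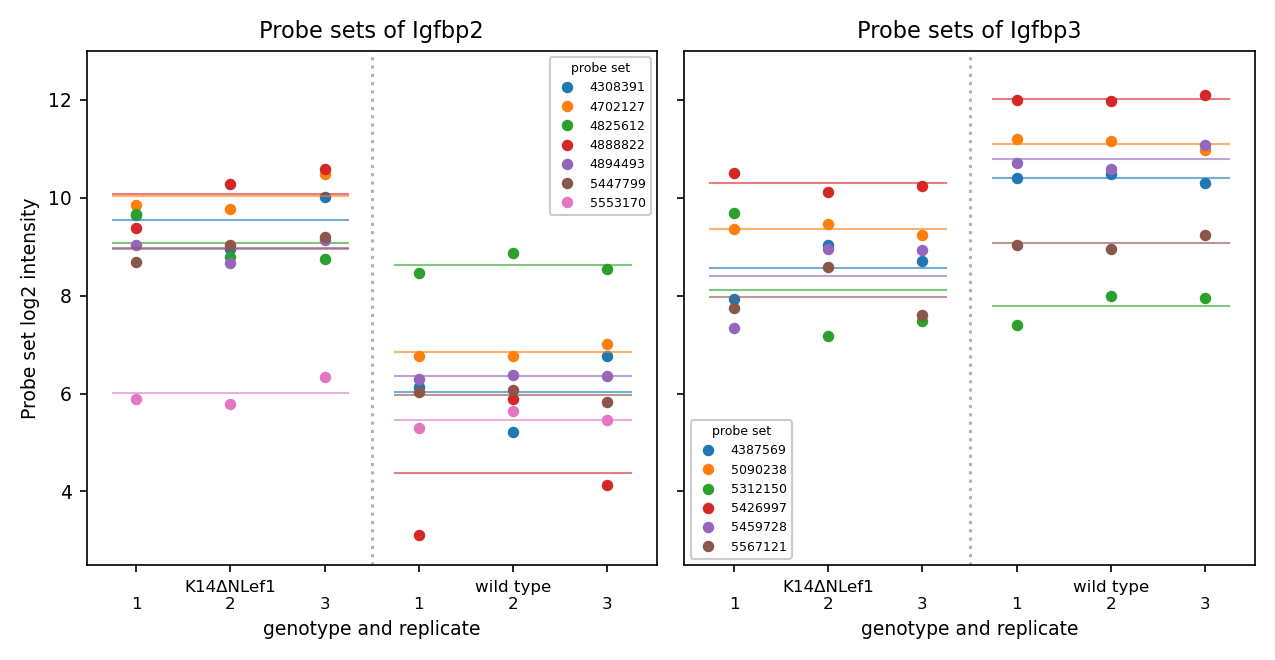
Log2 intensity (y axis) of each probe set of Igfbp2 (left, 7) and Igfbp3 (right, 6) on the K14ΔNLef1 and wild type arrays, by replicate (x axis); lines are means over the 3 arrays of a genotype. All 7 Igfbp2 probe sets have a higher mean in K14ΔNLef1, by least in the bright 4825612 and the dim 5553170, and most Igfbp3 probe sets lie lower, except 5312150.

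The other binding proteins differed less than Igfbp2 and Igfbp3, by at most 0.44, for Igfbp4. Of all genes 79.1% had an absolute difference under that, and the median absolute difference was 0.207. Igfbp1, which is made in liver under control of insulin, had gene values of 7.83, 6.92 and 6.91 in K14ΔNLef1 against 6.67, 7.06 and 7.02 in wild type. Only replicate 1 lay above the wild type arrays, and the difference of 0.30 was -0.003 without it. Igfbp4, an inhibitor of ligand action that the protease Pappa cleaves, had 7.05, 6.66 and 7.69 in K14ΔNLef1 against 6.69, 6.66 and 6.73 in wild type. The SD was 0.04 over the wild type arrays and 0.52 over the transgenic arrays, of which replicate 3 was the highest. In probe set 4680261 of Igfbp4 that array read 7.44, where the other 5 arrays read 4.47 to 5.15. The Igfbp4 difference of 0.44 was 0.16 without K14ΔNLef1 replicate 3.

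Igfbp5, which binds extracellular matrix, had 5.58, 5.56 and 6.16 in K14ΔNLef1 against 5.52, 5.20 and 5.39 in wild type. The genotypes did not overlap, though by a narrow margin, and the difference was 0.40, or 0.20 without K14ΔNLef1 replicate 3. Igfbp5 was dim, and the filters for brighter genes and for brighter probe sets each removed it. Genes with all K14ΔNLef1 arrays above all wild type arrays were 6.91% of the total. Of its 12 probe sets 11 had a positive difference, and in 2 of the 12 all K14ΔNLef1 arrays were above all wild type arrays, where 5.11% of all probe sets were above and 14.6% did not overlap in either direction, so nothing is read from that count. Igfbp6, which prefers Igf2 as its ligand, had 7.21, 6.74 and 6.72 in K14ΔNLef1 against 6.82, 6.29 and 6.90 in wild type. The groups overlapped, with a difference of 0.22. It was -0.41 when brighter probe sets alone were used, which is the value of the single probe set 5576857. The 3 probe sets of Igfbp6 disagreed, at 1.08, -0.005 and -0.41. The 1.08 came from probe set 5422949, which was dim and spread in wild type, at 5.23, 2.97 and 4.78.

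**Figure D3:**
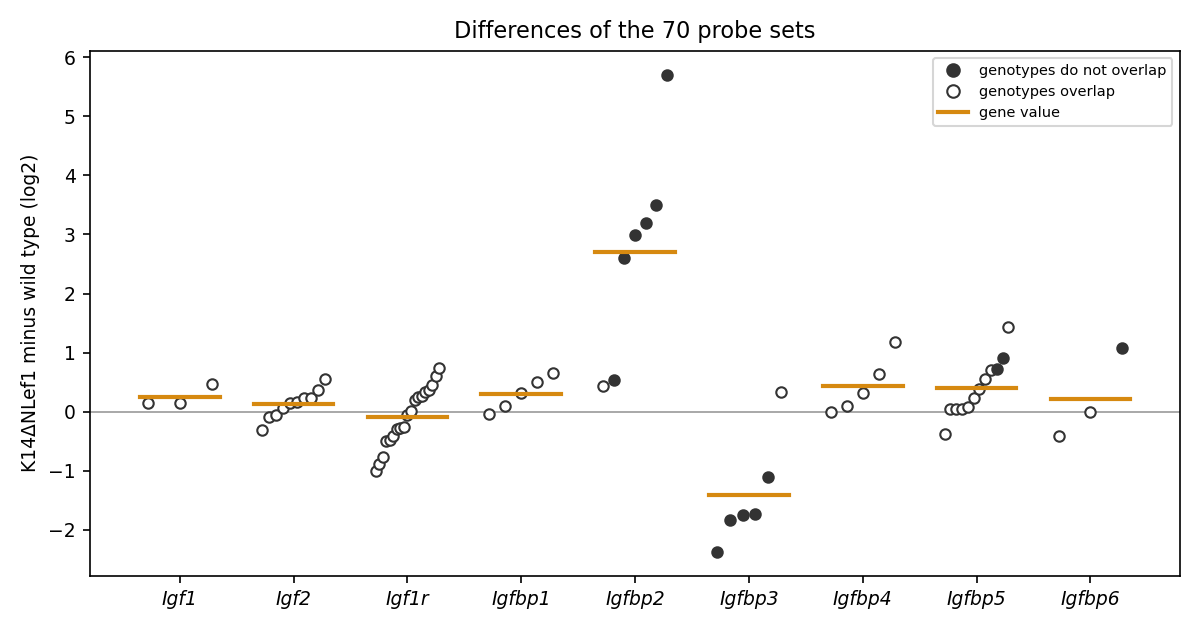
Difference K14ΔNLef1 minus wild type (log2, y axis) of each of the 70 probe sets by gene (x axis); filled points have genotypes that do not overlap and the bar is the gene value. Filled points gather in Igfbp2, from 0.54 to 5.71, and in Igfbp3, from -2.37 to -1.10, with 3 among the 57 probe sets of the other genes. Igfbp2 and Igfbp3 were chosen by this same contrast, so nothing is read from the gathering. Of all probe sets 14.6% did not overlap.

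The ligands and the receptor differed little on average. Igf1 had gene values of 7.42, 6.72 and 6.82 in K14ΔNLef1 against 6.40, 6.96 and 6.86 in wild type, a difference of 0.25 that was 0.03 without K14ΔNLef1 replicate 1. Igf2, the ligand most used in fetal growth, had 7.04, 6.58 and 6.47 in K14ΔNLef1 against 6.64, 6.58 and 6.51 in wild type, a difference of 0.13 that was -0.05 without replicate 1. For Igf1r the values were 7.19, 8.04 and 8.35 in K14ΔNLef1 against 8.0, 7.86 and 7.99 in wild type. The wild type receptor values were close together and the transgenic ones lay on both sides of them. The Igf1r difference of -0.09 had no fixed sign, since it was 0.25 without K14ΔNLef1 replicate 1, 0.02 with arrays shifted to the same median and 0.03 after quantile normalization. Its 19 probe sets ranged from -1.0 to 0.74, and all 19 overlapped between the genotypes.

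Over these 7 genes, 54 of 57 probe sets overlapped between the genotypes, and in the other 3 all K14ΔNLef1 arrays were above, a share near the 5.11% of all probe sets. In 0 of the 57 all K14ΔNLef1 arrays were below, where 9.46% of all probe sets were. In either direction 14.6% of all probe sets did not overlap. The genotype means of these genes hide differences between single arrays. K14ΔNLef1 replicate 1 was above the wild type mean by 0.92 for Igfbp1, 0.68 for Igf1, 0.54 for Igfbp6 and 0.47 for Igf2, while replicates 2 and 3 lay within 0.10 of that mean for these 4 genes. For Igf1r the same array was below the wild type mean, at -0.76, and it was the lowest of the 6 arrays in 12 of 19 probe sets. It was the highest of the 6 in 3 of 3 probe sets of Igf1 and in 6 of 10 of Igf2. How often this array was the extreme one over all probe sets was not counted, so nothing is read from these counts. Replicate 3 was instead the array furthest above the wild type mean for Igfbp4, by 1.0, and for Igfbp5, by 0.79. Replicate 1 is the array with the low median. Its log2 values also differed most from the mean of the other arrays of its genotype, with an SD of 0.981 over probe sets. The other arrays had 0.597 to 0.721. The part of either in these values was not tested.

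**Figure D4:**
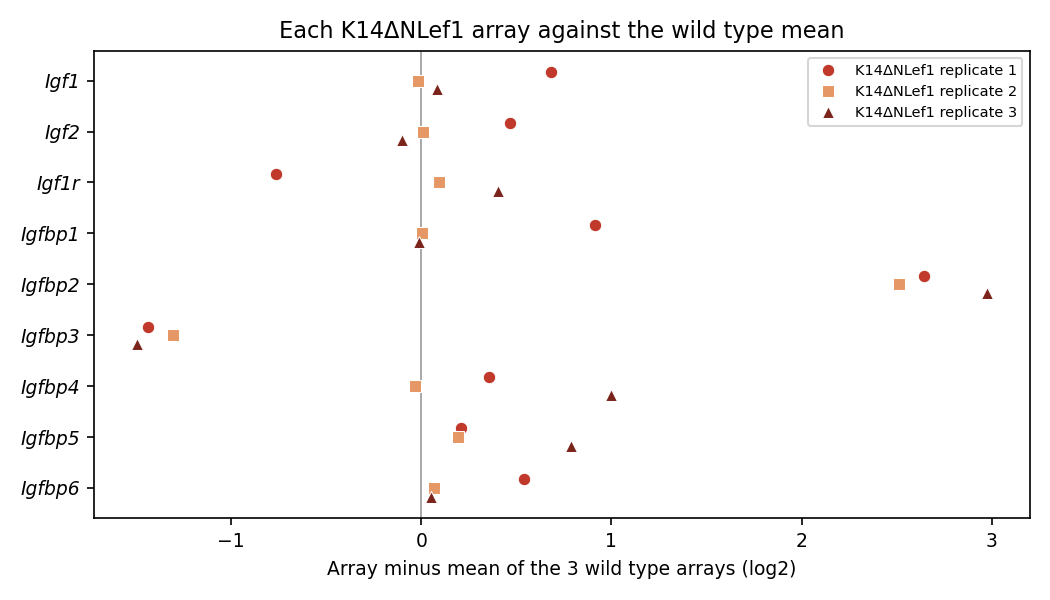
Each K14ΔNLef1 array minus the mean of the 3 wild type arrays (log2, x axis) for the 9 measured genes (y axis), with a symbol per replicate. The symbols of Igfbp2 lie between 2.51 and 2.98 and those of Igfbp3 between -1.49 and -1.30, whereas replicate 1 lies apart from the others for Igf1, Igf2, Igf1r, Igfbp1 and Igfbp6.

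In the genome 4 of these genes lie in pairs. Igfbp2 and Igfbp5 are neighbouring protein-coding genes on chromosome 1, and Igfbp1 and Igfbp3 are neighbours on chromosome 11, by the order of genes in the naming table. Among these neighbours a difference of 2.71 for Igfbp2 stood beside 0.40 for Igfbp5, and -1.41 for Igfbp3 beside 0.30 for Igfbp1, which was -0.003 without K14ΔNLef1 replicate 1. On the far side of Igfbp5, Tnp1, a protein of sperm chromatin, had 0.07. Rpl37a on the other side of Igfbp2 and Tns3 beside Igfbp3 were not analysed here.

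Likeness of pattern over the 6 arrays was measured as the root mean square difference between gene values, each gene centred on its own mean. The 5 genes nearest to Igfbp2 were Vldlr, a lipoprotein receptor, at 0.26, Pla2g4c, a cytosolic phospholipase, at 0.30, Cald1, the actin-binding caldesmon, at 0.31, Spo11, which cuts DNA in meiosis, at 0.37, and Pcbd1, a pterin dehydratase, at 0.38. The median over all other genes was 1.41. Vldlr had 7.91, 8.48 and 8.57 in K14ΔNLef1 against 5.70, 6.17 and 5.83 in wild type, so all 3 transgenic arrays were high in it too. Nearest to Igfbp3 were Aff3, a nuclear protein, at 0.10, Sh3gl2, an endophilin of membrane traffic, at 0.11, Trpc1, a cation channel, at 0.14, Heph, a ferroxidase, at 0.14, and Tnxb, an extracellular matrix tenascin, at 0.15, where the median over all other genes was 0.73. Aff3 had 6.52, 6.65 and 6.68 in K14ΔNLef1 against 8.13, 8.09 and 8.08 in wild type. These genes are named for likeness over 6 arrays that the genotypes divide, and the measure favours genes with the same size of difference.

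Other genes of the pathway were tested over all genes, and none passed. Of 108 listed genes 83 were measured, and 0 were higher and 0 lower at a limma adjusted p of 0.05, where 0.328% of all 11280 genes passed as higher and 0.833% as lower, 1.16% in either direction. At an unadjusted limma p under 0.05 there were 5 higher and 11 lower, or 19.3% of the 83, where 4.21% of all genes were higher and 7.58% lower, 11.8% in all. The median difference was -0.151 over the 83 genes and -0.054 over all genes, and without K14ΔNLef1 replicate 1 these were -0.053 and -0.017. With array weights, which gave K14ΔNLef1 replicate 1 a weight of 0.15 and replicate 2 a weight of 5.18, 14 of the pathway genes passed, where 598 genes rose and 698 fell over the whole table.

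Among other receptors, Igf2r, which takes up Igf2 for breakdown, had 7.23, 7.68 and 7.98 in K14ΔNLef1 against 7.02, 7.11 and 6.83 in wild type, a difference of 0.64 (SE 0.23) with a limma adjusted p of 0.307. The Igf2r difference was 0.84 without K14ΔNLef1 replicate 1. The insulin receptor gene Insr had a difference of -0.61 (SE 0.30, limma adjusted p of 0.504) that was -0.25 without K14ΔNLef1 replicate 1. None of 5 measured genes of this list passed.

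Of 13 measured genes for proteases, cofactors and relatives of the binding proteins, 6 were above and 7 below 0 with a median of -0.035 that was 0.019 without K14ΔNLef1 replicate 1, and 0 passed. The nearest were Htra1, a secreted protease reported to cleave Igfbp5, with -0.71 (limma adjusted p of 0.235), and Stc2, an inhibitor of Pappa proteases, with 0.66 (limma adjusted p of 0.296). Without K14ΔNLef1 replicate 1 Htra1 had -0.50 and Stc2 0.67. All K14ΔNLef1 arrays were below all wild type arrays for Htra1, as for 11.8% of all genes, and above them for Stc2, as for 6.91% of all genes.

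Genes for cell surface and nuclear partners of the binding proteins were lower in sign in 8 of 10 cases, where 6450 of all 11280 genes were, with a median of -0.485 that was -0.256 without K14ΔNLef1 replicate 1. None passed. Cav1, the caveolae protein caveolin, had 10.31, 10.39 and 10.79 in K14ΔNLef1 against 11.25, 11.30 and 11.42 in wild type, a difference of -0.82 (SE 0.19, limma adjusted p of 0.112). Lrp1, an endocytic receptor reported to bind Igfbp3, had 7.45, 7.56 and 7.67 in K14ΔNLef1 against 8.22, 8.06 and 8.10 in wild type, a difference of -0.56 (SE 0.17, limma adjusted p of 0.214). Leaving out K14ΔNLef1 replicate 1 gave -0.73 for Cav1 and -0.51 for Lrp1. On each of these 2 genes all transgenic arrays were below all wild type arrays, as for 11.8% of all genes, and the keratinocyte marker sum was lower on the same arrays.

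Inside the cell, 39 genes of the IRS, PI3K, AKT and mTOR route were measured, and 0 passed. Of the 39, 13 were above and 26 below 0, where 6450 of all 11280 genes were below. The median of the 39 genes, -0.112, was 0.034 without K14ΔNLef1 replicate 1. Irs1, the docking protein that links the receptor to PI3K, had 7.44, 7.59 and 7.91 in K14ΔNLef1 against 6.81, 6.80 and 7.21 in wild type, a difference of 0.71 (SE 0.21, limma adjusted p of 0.209). Ptpn1, a phosphatase that switches the receptors off, had -0.67 (SE 0.20, limma adjusted p of 0.222). For Irs1 and Ptpn1 the differences without K14ΔNLef1 replicate 1 were 0.81 and -0.51.

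FoxO transcription factors are held out of the nucleus by AKT, and 15 of their known target genes were measured. Of these 4 were above and 11 below 0, where 6450 of all 11280 genes were below. The median of the 15 genes, -0.367, was -0.261 without K14ΔNLef1 replicate 1, and 0 passed. Gadd45a, a growth arrest gene, had 5.97, 7.28 and 6.75 in K14ΔNLef1 against 8.06, 7.49 and 7.95 in wild type, a difference of -1.17 (SE 0.33, limma adjusted p of 0.199). Bcl6, a transcriptional repressor, had -0.65 (SE 0.22, limma adjusted p of 0.286). Gadd45a had -0.82 and Bcl6 -0.44 without K14ΔNLef1 replicate 1. The mRNA-binding proteins Igf2bp3 and Igf2bp1, which act on RNA inside the cell and are not members of the secreted family, had 0.27 and 0.03 (limma adjusted p of 0.744 and 0.971), which were 0.48 and -0.12 without K14ΔNLef1 replicate 1.

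**Figure D5:**
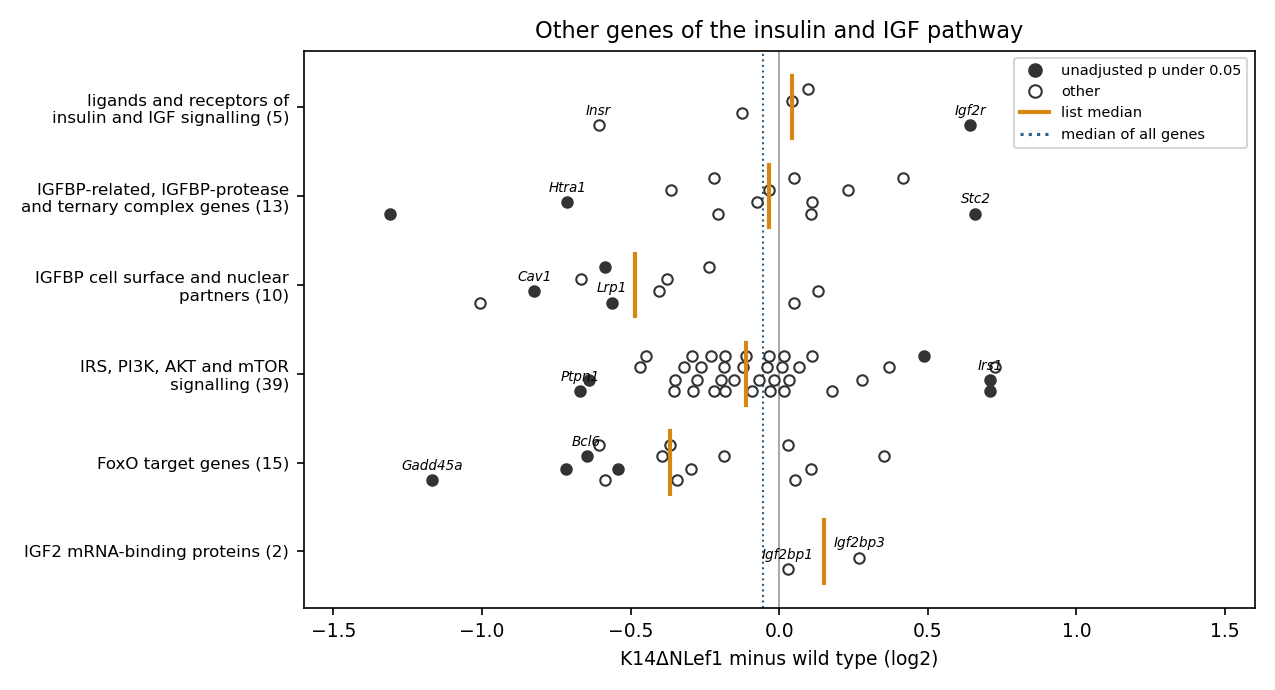
Difference K14ΔNLef1 minus wild type (log2, x axis) of the measured genes of 6 pathway lists (y axis, number of genes in brackets); filled points have an unadjusted limma p under 0.05, thick bars are list medians and the dotted line is the median of all genes. No point passed the adjusted threshold, and the lists of partners and of FoxO targets have the lowest medians, at -0.485 and -0.367.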

How the data were processed

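Gene expression was measured in epidermal keratinocytes, not split into subsets, in 3 K14ΔNLef1 and 3 wild type samples, grouped by their titles. RNA was purified on small columns after flow sorting, amplified as whole transcripts and biotin-labelled for exon arrays, per the labels' protocols. The deposited values are linear intensities, 1 for each probe set on each array. RMA, Affymetrix Power Tools and mm9 were used per the submitters' processing notes, with versions and any probe set filter not given in the sources used here. Log2 was taken here before every step. Of 114330 probe sets, 109751 had 1 symbol in the platform annotation, 834 had several and 3745 had none listed, and 1228 older symbols were updated through the GRCm38.p6 gene table. That table gave only names and gene order.

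Log2 values were averaged over the probe sets of a gene. The gene test used limma 3.58.1 under R 4.3.3 with moderated variances, two-sided, Benjamini-Hochberg over 11280 genes and a threshold of 0.05. The fit was also run on simulated data. Their noise was independent for each probe set, so they did not copy an array that stands apart. Other values were computed with Python 3.11.15 and pandas 2.3.3 and drawn with matplotlib 3.10.9. The number of arrays limits the precision. The labels name biological replicates and no pairs. The members and lists were chosen with earlier results of these data known. Named genes are all measured genes of the rule, in each pathway list the members that passed or else the 2 with the smallest p, the 5 genes of most similar pattern, Lef1 and cell markers. Genes beside these are neighbours in the genome. Alternatives were other probe set summaries and filters, scalings, variance settings, array weights, blocks and each array left out.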

Additional observations from a re-analysis of the deposited data

How the results depend on the processing

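The Igfbp2 difference of 2.71 lay between 2.43 and 2.99 over 15 settings, the lowest with brighter probe sets only and the highest with the median of probe sets. That of Igfbp3, -1.41, lay between -1.76 with the median of probe sets and -1.25 with quantile normalization, and was -1.30 with arrays shifted to the same median. With 1 array left out, Igfbp2 ranged from 2.58 to 2.81 and Igfbp3 from -1.47 to -1.37. Changes beyond the replicate SD, 0.22 for Igfbp2 and 0.09 for Igfbp3, came with the median of probe sets for both genes. They also came with brighter probe sets only for Igfbp2. For Igfbp3 they came with arrays shifted to the same median and with quantile normalization too. Of 103 values of the other 7 genes under these settings 12 had the opposite sign, in Igf1r, Igfbp1, Igf2 and Igfbp6. Of the 103, 1 moved by more than the replicate SD, Igfbp6 at -0.41 with brighter probe sets only. Igfbp5 had no value with brighter genes only or with brighter probe sets only. The 0 pathway genes past the threshold stayed 0 in 15 of 16 settings, each array left out included, and were 14 with array weights. Over all genes 37 were higher and 94 lower. With arrays shifted to the same median 101 were higher, with quantile normalization 89, and without K14ΔNLef1 replicate 1 and quantile normalized 111. Array weights gave 598 higher and 698 lower. With 1 array left out these counts ranged from 8 to 115 higher and from 18 to 124 lower. The cause was not tested. A replicate block left 26 higher and 49 lower, and a block by adjacent sample numbers 61 lower. Each block holds 1 array of each genotype, so the gene differences are the same by construction. Deviations of same-numbered arrays correlated at -0.163, -0.172 and 0.036 over genes. For arrays with adjacent sample numbers the correlations were 0.199, -0.0748 and -0.00675. With 3 arrays per genotype these values cannot decide whether arrays were paired. Signal over background could not be read, for want of detection calls.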
